A study of Mus musculus with 8 samples.

Results

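Fibroblast and extracellular matrix genes were followed in RNA from individual mouse iPSC clones. The list holds 37 genes, chosen by name but with earlier results of these data known. It covers collagens, other matrix proteins, enzymes that build or cut the matrix, and markers of mesenchymal cells. RefSeq records of the deposited count table were mapped to gene symbols, and for each symbol the record with the highest mean count was used. A record was found for 36 of the 37 genes, and all 36 passed the filter on low counts (5 or more reads in 4 or more of the 8 libraries), which kept 16235 of 27052 records. Col6a3 matched no record and is not analysed here.

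The study asked whether mouse fibroblasts can be reprogrammed without PIWI proteins, and each of its 8 libraries is 1 iPSC clone. The 4 TKO clones (35, 37, 47 and 48) came from embryonic fibroblasts (MEFs) with both copies of Miwi, Mili and Miwi2 mutated, and the 4 Ctrl clones (33, 34, 41 and 43) from littermate MEFs that the methods give as triple heterozygous and the legends as wild type or heterozygous. All MEFs carried an Oct4-GFP reporter on a mixed C57BL/6 and s129 background and were infected with retroviruses for OCT4, SOX2, KLF4 and c-MYC. Colonies were picked onto feeder layers of growth-arrested MEFs, and the clones had been passaged fewer than 10 times. The sources used here do not say whether feeder cells were removed before RNA was isolated, which embryo each clone came from or what the clone numbers mean. The numbers fall into a lower and a higher set with 2 clones of each genotype in both, and the genotype difference was also measured within these series, called the thirties clones (33 to 37) and the forties clones (41 to 48). Since nothing shows that the clones came from separate embryos, p-values measure only the spread between these clones.

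Library totals ran from 8983203 to 24688324 reads in Ctrl clones and from 24593995 to 52457455 in TKO clones, and TKO 35 and TKO 37 were the deepest. No library pair agreed within sampling noise, although TKO 35 and TKO 37 were the closest pair (median absolute difference of 0.0800 on the log2 scale over 9278 records), followed by Ctrl 41 and 43 (0.105) and TKO 47 and 48 (0.156). Ctrl 33 and 34 were farther apart (0.241), and on this scale Ctrl 33 lay closer to TKO 47 (0.191) and TKO 48 (0.232) than to Ctrl 34. The order depends on the measure. By chi-square per record, which sets differences against sampling noise and rises with depth, Ctrl 33 was closest to Ctrl 34 (32.96). The values for TKO 47 and TKO 48 were 51.05 and 63.83. Of the targeted genes, Piwil1 (Miwi) had 8.16 to 28.9 normalized counts in Ctrl and 2.42 to 4.55 in TKO clones, whereas Piwil2 (Mili, 762 to 1033 against 3862 to 10128) and Piwil4 (Miwi2, 489 to 773 against 940 to 2875) were higher in TKO clones. The Mili allele lacks some exons and the Miwi2 allele holds added stop codons, so whole-record counts of these transcripts do not check the labels. The pluripotency gene Pou5f1 was abundant in all clones, at 24418 to 29099 normalized counts in Ctrl and 15937 to 19270 in TKO clones.

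Fibroblasts secrete and remodel the connective tissue matrix. They spin fibrillar collagens into fibres that lysyl oxidases cross-link, coat these with small proteoglycans, and lay down fibronectin and elastic microfibrils beside them. During reprogramming to pluripotency fibroblasts shut down this programme together with transcription factors such as Snai2, Twist1, Twist2 and Prrx1 and take on epithelial features, so the same transcripts in an iPSC culture can be carried by remaining or feeder fibroblasts, by cells that leave the pluripotent state, or by the pluripotent cells themselves. In bulk RNA fewer cells of a type and less RNA per cell cannot be told apart.

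Start-site sequences of members were taken from RefSeq (GRCm38.p6, 250 bases before to 50 bases after the start), which held a window for 22 of the 37 genes. Windows are shown for the 4 members with the smallest p for the difference of the genotype effect between series among those with 1 window, since these are the genes the results below turn on. They lie at chr11:75422574-75422873 on the minus strand (Serpinf1), chrX:73483351-73483650 on the plus strand (Bgn), chr3:90603520-90603819 on the plus strand (S100a4) and chr1:91801211-91801510 on the plus strand (Twist2). Each is printed 5′ to 3′ in the direction of transcription, and capitals mark matches on either strand to any of 6 short motifs, which are the TATA box (TATAAA), the CCAAT box (CCAAT), the GC box (GGGCGG), the Snail-type E-box (CAGGTG), the AP-1 site (TGANTCA) and the TEAD site (GGAATG).
Serpinf1: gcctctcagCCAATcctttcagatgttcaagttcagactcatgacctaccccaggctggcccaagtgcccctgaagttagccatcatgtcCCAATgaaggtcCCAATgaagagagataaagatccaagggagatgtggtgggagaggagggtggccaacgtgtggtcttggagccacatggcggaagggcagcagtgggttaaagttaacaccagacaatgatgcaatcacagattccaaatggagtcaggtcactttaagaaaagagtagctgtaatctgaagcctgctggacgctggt
Bgn: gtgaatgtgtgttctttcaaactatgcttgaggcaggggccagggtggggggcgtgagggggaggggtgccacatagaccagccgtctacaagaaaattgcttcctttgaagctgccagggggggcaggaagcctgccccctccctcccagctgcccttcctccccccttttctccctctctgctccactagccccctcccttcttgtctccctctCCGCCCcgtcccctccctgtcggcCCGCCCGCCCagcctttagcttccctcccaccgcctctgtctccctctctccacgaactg
S100a4: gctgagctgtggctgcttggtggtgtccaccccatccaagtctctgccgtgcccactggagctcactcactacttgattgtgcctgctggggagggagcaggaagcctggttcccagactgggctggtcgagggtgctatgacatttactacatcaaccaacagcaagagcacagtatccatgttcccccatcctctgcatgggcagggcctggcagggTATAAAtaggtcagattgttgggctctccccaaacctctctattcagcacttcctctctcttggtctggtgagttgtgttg
Twist2: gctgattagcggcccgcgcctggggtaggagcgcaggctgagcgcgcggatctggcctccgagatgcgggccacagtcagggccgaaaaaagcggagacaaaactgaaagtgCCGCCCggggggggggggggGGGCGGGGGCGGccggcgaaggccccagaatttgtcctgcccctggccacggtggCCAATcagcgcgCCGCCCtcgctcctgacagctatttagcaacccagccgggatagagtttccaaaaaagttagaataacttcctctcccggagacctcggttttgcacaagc
The 4 windows shared no single motif. S100a4 held a TATA box that ended 26 bases before the start, Serpinf1 held 3 CCAAT boxes, Bgn held 3 GC boxes within 34 bases of the start, of which the last 2 overlap, and Twist2 held 4 GC boxes and 1 CCAAT box. Over all members with a window, a GC box was present in 13 of 22 (59.1%, against 38.2% of all 27025 symbols with a window), a CCAAT box in 9 of 22 (40.9% against 41.1%), a TATA box in 5 of 22 (22.7% against 15.7%), a TEAD site in 4 (18.2% against 16.6%), an E-box in 2 (9.09% against 22.6%) and an AP-1 site in 1 (4.55% against 8.97%). These are matches of letters only, given as a description of the windows.

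The members were far from silent in these clones. Levels per kilobase of record (normalized counts divided by record length) averaged 10656 for Vim, 9771 for Sparc and 9072 for Fn1, against 16104 for Pou5f1. Vimentin, SPARC and fibronectin are made by many cell types including pluripotent cells. Next came Bgn at 5606, S100a4 at 5255, Col1a1 at 2219 and Col1a2 at 2155 per kilobase. Of these, Bgn, Col1a1 and Col1a2 are more particular to matrix-producing cells, while S100a4 is an intracellular protein with a record of 513 bases. At the other end stood Pdgfrb (0.737 per kilobase), Fap (13.9), Dcn (23.9), Prrx1 (40.7) and Lum (68.7), of which Pdgfrb, Dcn and Lum are commonly used to recognise fibroblasts. Thy1, used in the same way, stood at 1523 per kilobase, below Col1a2, so markers of fibroblasts were not all at the low end of the order. Summed over the 36 members, the level per kilobase was 63659 to 79774 in Ctrl 33 and 34, 38610 to 40475 in TKO 35 and 37, 51329 to 56835 in Ctrl 41 and 43, and 64525 to 68135 in TKO 47 and 48. The TKO sum was thus below the Ctrl sum in the thirties clones and above it in the forties clones, with no overlap in either series. Without Vim, Sparc and Fn1, a set left out after their values were seen, the sums were 29876 to 42656, 14845 to 14957, 25502 to 29348 and 34991 to 35171 in the same order.

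**Figure D1:**
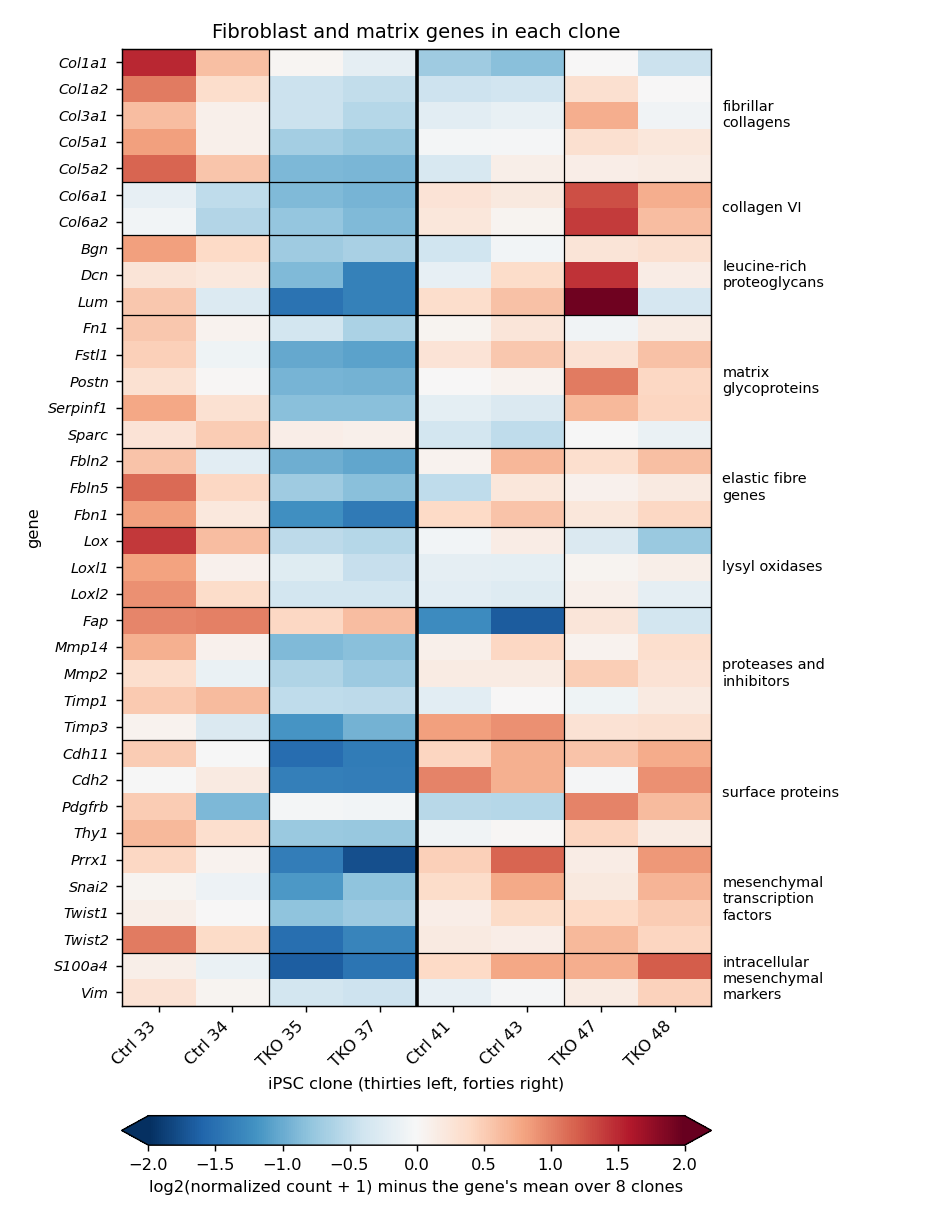
Heat map of the 36 measured members (rows, grouped by role) in the 8 iPSC clones (columns, thirties left of the thick line and forties right of it), coloured by log2(normalized count + 1) minus the gene's mean over the 8 clones, with the scale running from -2 to 2. The 2 columns of TKO 35 and TKO 37 are blue for nearly all genes, Ctrl 33 is red for many collagens and lysyl oxidases, and TKO 47 is red for collagen VI, Dcn and Lum.

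With all 4 TKO clones set against all 4 Ctrl clones, no member passed an adjusted p of 0.05 in edgeR's quasi-likelihood test (0 of 36, against 0.24% of all 16235 tested records). At an unadjusted p under 0.05 there were 2 members, both lower in TKO clones (14.8% of all records met this p). DESeq2 and edgeR's exact test each called 1 member, Lox, where they called 3.17% and 1.34% of all records, and limma-voom called 0 (0.253% of all records). A count of 1 in 36 is near these shares. The median log2 fold change over the 36 members was -0.39, against -0.01 over all records, and 29 of the 36 fitted changes were below 0. The groups of 4 clones overlapped for 35 of the 36 members, and Lox was the exception (over all records TKO clones lay wholly below Ctrl clones in 4.23%). In a model that also held the clone series, 2 members were lower in TKO clones (Lox and Timp3) and none was higher, where 5.7% of all records were called, 3.1% as lower and 2.6% as higher. This count was 0 without TKO 37 (0.574% of all records), 1 without Ctrl 41, Ctrl 43 or TKO 35 (1.49%, 1.07% and 0.586%) and 5 without TKO 48 (10.2%). With all clones the median over members was -0.43.

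Within the thirties clones 29 of the 36 members were lower in TKO than in Ctrl clones and none was higher. Over all records 11.9% were called in this comparison, 7.05% as lower and 4.83% as higher. These shares also stand beside the counts by role further below. The median log2 fold change of the members was -1.21 (all records, -0.01), and TKO clones lay wholly below Ctrl clones for 35 of 36 members, against 29.0% of all records. Both thirties TKO clones were also the lowest of all 8 clones for 31 of 36 members (17.9% of all records). Of the 29 members, 10 also changed by at least 2.5-fold (3.44% of all records passed both). The 7 members that did not pass were Col6a1, Col6a2, Dcn, Lum, Sparc, Fap and Pdgfrb. These calls rest on the pair of closely matched TKO libraries: without TKO 35 only Fbn1 passed and without TKO 37 there were 8 members, while calls over all records fell from 1928 to 27 and 81 and the median over members was -1.26 and -1.17. When any 1 of the other 6 clones was left out, 25 to 32 members passed.

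Within the forties clones the members leaned the other way. Serpinf1, the 1 member called, was higher in TKO clones and none was lower (1.98% of all records were called, 0.813% as higher and 1.17% as lower). Without Ctrl 33 or Ctrl 34 there were 13 members called (11 higher and 2 lower), but calls over all records rose as well, to 9.15% and 9.19%. There were 2 members without TKO 48 (0.22% of all records) and 0 without any 1 of the other 5 clones (0.0437% to 1.01%). The median log2 fold change was 0.29 (all records, 0.01), and TKO clones lay wholly above Ctrl clones for 20 members, wholly below for 2 (Lox and Timp3) and overlapped for 14, where 26.6% of all records lay above and 27.0% below. The fitted change was below 0 in the thirties and above 0 in the forties clones for 27 of 36 members, against 21.6% of all records.

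The difference between both genotype effects was tested as an interaction. The forties effect exceeded the thirties effect in 15 of 36 members and the reverse was called for none (1.3% of all records were called, 1.03% in this direction and 0.265% in the other). The 15 members were Serpinf1, Col5a2, Bgn, Cdh11, Thy1, S100a4, Twist2, Postn, Fbn1, Col1a2, Col5a1, Vim, Col6a1, Loxl2 and Fstl1. The fitted difference was above 0 for all 36 members, ranged from 0.40 (Timp3) to 2.54 (Twist2) and had a median of 1.45. The count was 0 when Ctrl 41, Ctrl 43, TKO 35 or TKO 37 was left out, where calls over all records fell from 211 to 1 or 2, and it was 23 and 25 without Ctrl 33 and Ctrl 34 (8.11% and 4.44% of all records), 16 without TKO 47 (3.54%) and 11 without TKO 48 (0.326%). The median difference over members without Ctrl 41, Ctrl 43, TKO 35 or TKO 37 ran from 1.37 to 1.51. DESeq2 called 29 members and 5.79% of all records, and the fit with no filter on low counts 28 members and 3.03%.

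**Figure D2:**
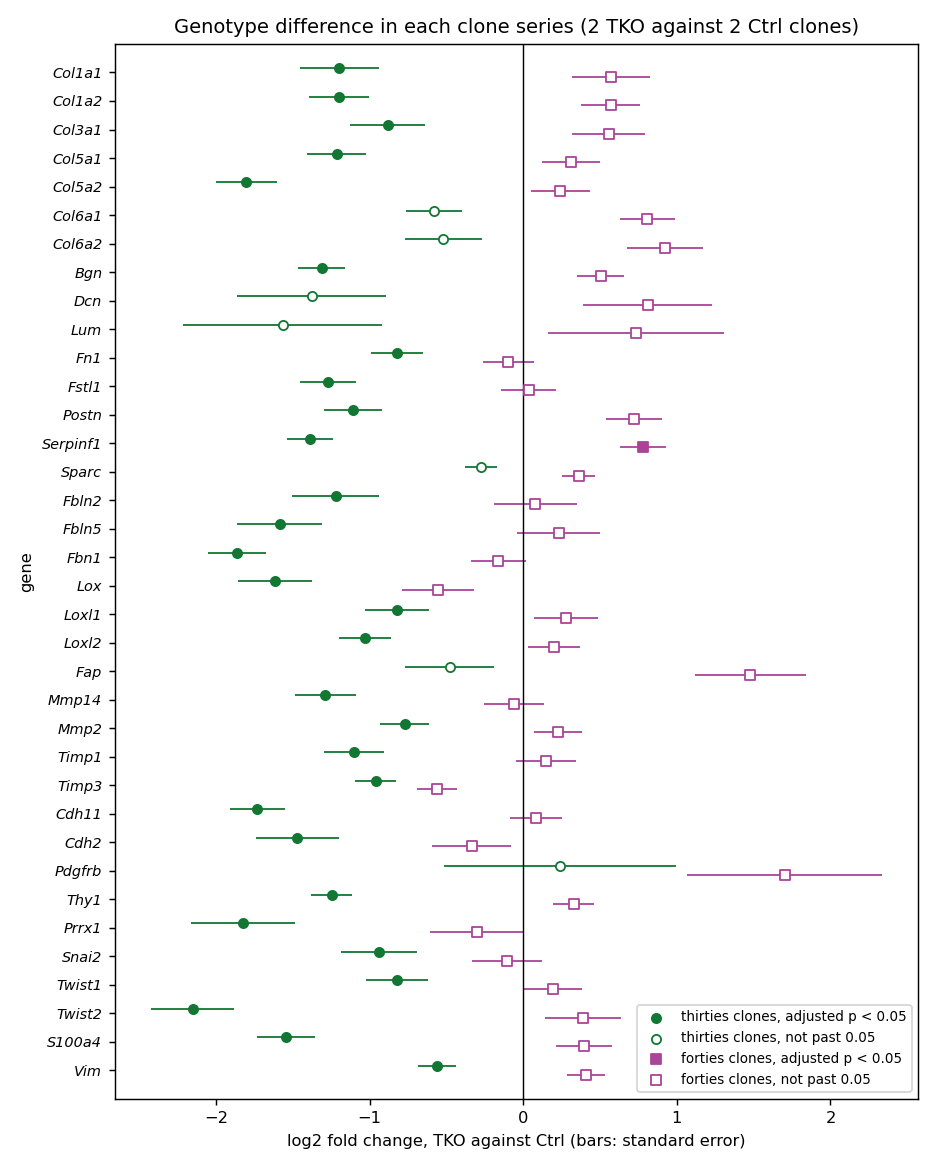
Log2 fold change of TKO against Ctrl clones for each member, with its standard error, in the thirties clones (green circles) and the forties clones (purple squares), each 2 against 2 clones within 1 fit of all 8. Filled symbols passed an adjusted p of 0.05, which 29 members did in the thirties and Serpinf1 did in the forties clones. All thirties values except that of Pdgfrb lie left of 0, and 28 of 36 forties values lie right of it.

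Among the fibrillar collagens, which form the tensile fibres of connective tissue, 5 of 5 fell in the thirties TKO clones (log2 fold changes of -0.88 to -1.80) and none passed in the forties clones (0.24 to 0.57). Col5a2, a chain of the type V collagen that nucleates fibres, had 10031 and 6579 normalized counts in Ctrl 33 and 34, 2380 and 2371 in TKO 35 and 37, 3552 and 4816 in Ctrl 41 and 43, and 4907 and 4981 in TKO 47 and 48. Both thirties TKO clones were the lowest of the 8 and both thirties Ctrl clones the highest. Its change was -1.80 ± 0.20 (SE) in the thirties clones (3.49-fold lower, adjusted p = 0.00229 by edgeR's quasi-likelihood test) and 0.24 ± 0.19 in the forties clones (adjusted p = 0.529). Col5a1, the partner chain, had 6916 and 4200 in the thirties Ctrl, 2451 and 2321 in the thirties TKO, 3807 and 3843 in the forties Ctrl and 4901 and 4573 in the forties TKO clones. Ctrl 33 stood well above the other Ctrl clones, and the thirties change of -1.22 ± 0.19 (adjusted p = 0.00784) was 1.52 ± 0.27 below that in the forties clones (adjusted p = 0.0388).

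The type I collagen genes are given here although they fall outside the rule for named genes, and were chosen after their values were seen. Col1a1, the main chain of the most abundant collagen, had 25920 and 13830 normalized counts in Ctrl 33 and 34, 9318 and 8001 in TKO 35 and 37, 5570 and 5101 in Ctrl 41 and 43, and 9107 and 6757 in TKO 47 and 48. Here the forties Ctrl clones were the lowest, and forties Ctrl clones were below thirties Ctrl clones by -1.90 ± 0.26 (adjusted p = 0.0076). The same difference among TKO clones was -0.13 ± 0.25 (adjusted p = 0.749). Its partner chain Col1a2 fell in the thirties TKO clones (-1.20 ± 0.19, adjusted p = 0.00868) and had a value of 0.57 ± 0.19 in the forties clones (adjusted p = 0.144).

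Collagen VI forms beaded filaments around cells, and its chains Col6a1 and Col6a2 lie side by side on chromosome 10 (mm9, chr10:76171537-76188913 and chr10:76058507-76086375, 85.2 kb apart). For Col6a1 the counts were 2239 and 1753 in Ctrl 33 and 34, 1350 and 1307 in TKO 35 and 37, 3018 and 2851 in Ctrl 41 and 43, and 6118 and 4150 in TKO 47 and 48. Col6a2 had 1107 and 771 in thirties Ctrl, 676 and 623 in thirties TKO, 1353 and 1194 in forties Ctrl, and 3060 and 1768 in forties TKO clones. For both chains the groups did not overlap, with thirties TKO clones lowest, then thirties Ctrl, then forties Ctrl, and forties TKO clones highest. Neither passed in the thirties (-0.58 ± 0.18 and -0.52 ± 0.25) or in the forties clones (0.81 ± 0.18, adjusted p = 0.0563, and 0.92 ± 0.25, adjusted p = 0.088), and the difference between series passed for Col6a1 (1.39 ± 0.25, adjusted p = 0.0432). Between forties and thirties TKO clones they rose by 1.95 ± 0.18 and 1.89 ± 0.25 on the log2 scale (adjusted p = 0.000531 and 0.00161).

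Small leucine-rich proteoglycans decorate collagen fibres. Bgn (biglycan) had 22318 and 16641 normalized counts in Ctrl 33 and 34, 7687 and 8003 in TKO 35 and 37, 9565 and 12156 in Ctrl 41 and 43, and 15110 and 15662 in TKO 47 and 48. TKO clones were the lower ones in the thirties and the higher ones in the forties. The change was -1.31 ± 0.15 (2.48-fold lower, adjusted p = 0.00261) in the thirties and 0.50 ± 0.15 (adjusted p = 0.113) in the forties clones, a difference of 1.81 ± 0.21 (adjusted p = 0.0197). Dcn (decorin) and Lum (lumican), neighbours on chromosome 10 that are 47.4 kb apart, were counted at much lower levels and did not pass in either series. TKO 47 held the highest value of both, 107 normalized counts of Dcn and 423 of Lum, where the other 7 clones had 14.5 to 50.1 and 38.6 to 164.

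Of the matrix glycoproteins, 4 of 5 fell in the thirties TKO clones (Fn1, Fstl1, Postn and Serpinf1). Serpinf1 encodes PEDF, a secreted inhibitor of vessel growth, and had 3216 and 2340 normalized counts in Ctrl 33 and 34, 1061 and 1055 in TKO 35 and 37, 1648 and 1552 in Ctrl 41 and 43, and 2950 and 2539 in TKO 47 and 48. Its direction turned between the series, from -1.39 ± 0.15 (2.62-fold lower, adjusted p = 0.00229) to 0.78 ± 0.15 (1.71-fold higher, adjusted p = 0.0416), and it had the smallest adjusted p of the members for that difference (2.17 ± 0.21, adjusted p = 0.0145). The forties call was lost when any 1 of Ctrl 41, Ctrl 43 and the 4 TKO clones was left out (adjusted p = 0.082 to 0.318, change of 0.67 to 0.88) and with libraries thinned to the smallest total (adjusted p = 0.0502). Postn (periostin), a matricellular protein of collagen-rich tissue, had 2280 and 1883 in thirties Ctrl, 965 and 960 in thirties TKO, 1861 and 1944 in forties Ctrl, and 3798 and 2470 in forties TKO clones. The 4 Ctrl clones lay close together and the TKO clones on both sides of them, and the difference between series was 1.83 ± 0.26 (adjusted p = 0.0225).

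Fstl1, a secreted glycoprotein, had 6386 and 4324 normalized counts in Ctrl 33 and 34, 2259 and 2170 in TKO 35 and 37, 5555 and 6646 in Ctrl 41 and 43, and 5607 and 6893 in TKO 47 and 48. The thirties TKO clones stood below the other 6, with a change of -1.27 ± 0.18 (adjusted p = 0.00585) against 0.04 ± 0.18 in the forties clones (adjusted p = 0.943), and the difference between series was 1.31 ± 0.25 (adjusted p = 0.0483). Sparc, a collagen-binding glycoprotein that was second to Vim in level per kilobase, had 26486 and 31304 in thirties Ctrl, 24191 and 23537 in thirties TKO, 17017 and 15459 in forties Ctrl and 21750 and 19964 in forties TKO clones. It did not pass between genotypes in either series (-0.28 ± 0.11 and 0.36 ± 0.11), but forties Ctrl clones were lower than thirties Ctrl clones by -0.83 ± 0.11 (adjusted p = 0.00586). Fn1 (fibronectin) ran from 47149 to 107078 over the 8 clones and fell in the thirties TKO clones (-0.82 ± 0.17, adjusted p = 0.0176).

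The 3 elastic fibre genes (Fbn1, Fbln2 and Fbln5) fell in the thirties TKO clones (log2 fold changes of -1.22 to -1.86). Fbn1 encodes fibrillin-1, the backbone of microfibrils, and had 5235 and 3447 normalized counts in Ctrl 33 and 34, 1268 and 1111 in TKO 35 and 37, 3899 and 4417 in Ctrl 41 and 43, and 3468 and 3950 in TKO 47 and 48. The thirties TKO clones were 3.64-fold lower (-1.86 ± 0.19, adjusted p = 0.00164), while the forties groups overlapped (-0.16 ± 0.18, adjusted p = 0.653), and the effects differed by 1.70 ± 0.26 (adjusted p = 0.029). Fbln2 (fibulin-2) had 427 and 250 in thirties Ctrl, 146 and 141 in thirties TKO, 301 and 456 in forties Ctrl, and 363 and 437 in forties TKO clones. Its thirties change was -1.22 ± 0.28 (adjusted p = 0.0267) and the difference between series did not pass (adjusted p = 0.125).

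Lysyl oxidases cross-link collagen and elastin, and 3 of 3 fell in the thirties TKO clones. Lox, the member with no overlap between genotypes over all 8 clones, had 6481 and 3726 normalized counts in Ctrl 33 and 34, 1685 and 1632 in TKO 35 and 37, 2344 and 2681 in Ctrl 41 and 43, and 1977 and 1442 in TKO 47 and 48. All 4 TKO clones lay below all 4 Ctrl clones, and Ctrl 33 was the highest. The change over all clones was -1.17 ± 0.29 (adjusted p = 0.171), and -1.09 ± 0.24 with the clone series in the model (adjusted p = 0.034). An exact two-sided permutation test gave p = 0.0286, the smallest that 4 against 4 clones can give, and over the 36 members so tested the next values were 0.0857 (Fn1) and 0.114 (Mmp14). Lox was lower in the thirties (-1.62 ± 0.24, adjusted p = 0.00649) and did not pass in the forties clones (-0.56 ± 0.24, adjusted p = 0.231), and these effects did not differ past the threshold (1.06 ± 0.33, adjusted p = 0.136).

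Among proteases and inhibitors, Mmp2, Mmp14, Timp1 and Timp3 fell in the thirties TKO clones and Fap did not pass. Timp3, a matrix-bound inhibitor of metalloproteinases, had 4043 and 3140 normalized counts in Ctrl 33 and 34, 1693 and 1991 in TKO 35 and 37, 6755 and 7188 in Ctrl 41 and 43, and 4668 and 4783 in TKO 47 and 48. It was lower in TKO clones of both series while forties clones were higher than thirties clones of either genotype. The change was -0.96 ± 0.13 (adjusted p = 0.00508) in the thirties, -0.56 ± 0.13 (adjusted p = 0.0652) in the forties clones and -0.76 ± 0.12 (adjusted p = 0.0105) with the series in the model. Mmp14, the membrane-bound metalloproteinase that activates MMP2, had 2985 and 1939 in thirties Ctrl, 987 and 1019 in thirties TKO, 1966 and 2430 in forties Ctrl and 1908 and 2307 in forties TKO clones. For Mmp2, a gelatinase, the counts were 1573 and 1135, 824 and 755, 1394 and 1396, and 1754 and 1513 in the same order. Both enzymes were lowest in the thirties TKO clones, with changes of -1.29 ± 0.20 (adjusted p = 0.00765) and -0.77 ± 0.16 (adjusted p = 0.0183). Fap, a surface protease of activated fibroblasts, followed clone series among the Ctrl clones, with 62.6 and 63.6 in Ctrl 33 and 34 and 12.5 and 9.21 in Ctrl 41 and 43 (-2.53 ± 0.36, adjusted p = 0.00774).

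**Figure D3:**
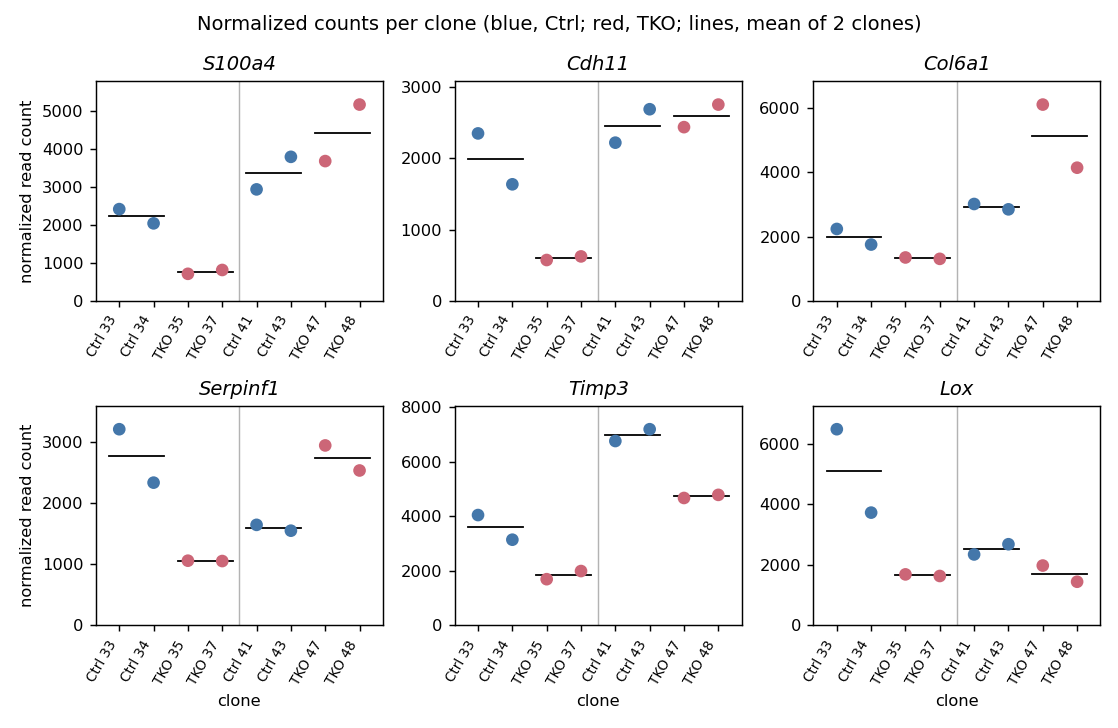
Normalized read counts (linear axis from 0) of S100a4, Cdh11, Col6a1, Serpinf1, Timp3 and Lox in each iPSC clone, with Ctrl in blue, TKO in red, a grey line between the thirties and forties clones and short black lines at the mean of each pair. S100a4 and Cdh11 are lowest in TKO 35 and 37, Col6a1 and Serpinf1 are low in these clones and high in TKO 47 and 48, and Timp3 and Lox are lower in TKO clones of both series.

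Of the surface proteins, Cdh11, Cdh2 and Thy1 fell in the thirties TKO clones. Cdh11 (cadherin-11), an adhesion protein of mesenchymal cells, had 2351 and 1636 normalized counts in Ctrl 33 and 34, 572 and 623 in TKO 35 and 37, 2221 and 2690 in Ctrl 41 and 43, and 2439 and 2756 in TKO 47 and 48. The thirties TKO clones were 3.32-fold lower (-1.73 ± 0.18, adjusted p = 0.0017), the forties groups overlapped (0.08 ± 0.17, adjusted p = 0.836), and the effects differed by 1.81 ± 0.25 (adjusted p = 0.0197). Thy1, a surface glycoprotein used to sort fibroblasts, had 3953 and 3186 in thirties Ctrl, 1507 and 1493 in thirties TKO, 2408 and 2566 in forties Ctrl, and 3410 and 2830 in forties TKO clones. Its groups did not overlap in either series, and the change of -1.25 ± 0.13 (adjusted p = 0.00198) in the thirties differed from that of 0.33 ± 0.13 in the forties clones by 1.58 ± 0.19 (adjusted p = 0.0197). Cdh2 (N-cadherin), which replaces E-cadherin in mesenchymal cells, had 623 and 713 in thirties Ctrl, 243 and 240 in thirties TKO, 1252 and 1033 in forties Ctrl, and 620 and 1186 in forties TKO clones. It was lowest in the thirties TKO clones (-1.47 ± 0.27, adjusted p = 0.0126), and TKO 47 lay below both thirties Ctrl clones and TKO 48 among the forties Ctrl clones. Pdgfrb, a growth factor receptor of stromal cells, held 1 to 8 reads per library in the record used and 0 to 6 in a second record of nearly the same length, so its values (0.24 ± 0.75 and 1.70 ± 0.63) are uncertain, and the rule for reads that match both records is not given in the sources used here.

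All 4 mesenchymal transcription factors fell in the thirties TKO clones and none passed in the forties clones. Twist2 had the largest fitted thirties change of the 36 members, with 180 and 114 normalized counts in Ctrl 33 and 34, 30.1 and 34.4 in TKO 35 and 37, 99.1 and 96.2 in Ctrl 41 and 43, and 138 and 119 in TKO 47 and 48. It was 4.44-fold lower in the thirties TKO clones (-2.15 ± 0.27, adjusted p = 0.00336) and its difference between series was 2.54 ± 0.37 (adjusted p = 0.0225). Prrx1, a homeobox gene of limb and body wall mesenchyme, had 185 and 146 in thirties Ctrl, 52.3 and 40.2 in thirties TKO, 192 and 311 in forties Ctrl, and 154 and 252 in forties TKO clones. Twist1 had 141 and 132, 74.5 and 79.0, 143 and 170, and 172 and 185 in the same order. Snai2, a repressor of epithelial genes, had 199 and 178, 85.8 and 109, 246 and 323, and 220 and 308. For these 3 genes the thirties TKO clones were the lowest (-1.83 ± 0.34, -0.82 ± 0.20 and -0.94 ± 0.25, adjusted p = 0.0131, 0.0315 and 0.0406), and the difference between series did not pass (adjusted p = 0.123, 0.102 and 0.226).

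Both intracellular markers fell in the thirties TKO clones. S100a4 (a calcium-binding protein also called fibroblast-specific protein) had the smallest adjusted p between the series of TKO clones, with 2416 and 2041 normalized counts in Ctrl 33 and 34, 710 and 811 in TKO 35 and 37, 2936 and 3795 in Ctrl 41 and 43, and 3682 and 5172 in TKO 47 and 48. The thirties TKO clones were the lowest and the forties groups overlapped. It rose by 2.54 ± 0.19 on the log2 scale from thirties to forties TKO clones (adjusted p = 0.000228), and its genotype effects of -1.55 ± 0.19 (adjusted p = 0.00313) and 0.40 ± 0.18 (adjusted p = 0.265) differed by 1.94 ± 0.26 (adjusted p = 0.0197). Vim, the intermediate filament of mesenchymal cells, had 23320 and 19979 in thirties Ctrl, 14921 and 14406 in thirties TKO, 17035 and 18911 in forties Ctrl, and 21382 and 26397 in forties TKO clones. Its highest clone was 1.83 times its lowest, the narrowest range of the members, with -0.56 ± 0.12 (adjusted p = 0.0227) in the thirties and 0.41 ± 0.12 (adjusted p = 0.114) in the forties clones.

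Clones of 1 genotype also differed between series. In Ctrl clones 11 of 36 members differed between forties and thirties (6.58% of all records), 10 of them lower in the forties (3.32% of all records), namely Col1a1, Col1a2, Col5a2, Bgn, Sparc, Serpinf1, Lox, Loxl2, Fap and Thy1, and 1 higher (Timp3, where 3.26% of all records were higher). In TKO clones 28 of 36 were higher in the forties and none was lower (23.9% of all records were called, 13.0% as higher and 10.9% as lower), and all 3 lysyl oxidases, Col1a1, Sparc, Fap, Timp1 and Pdgfrb did not pass. Ctrl 33 was the shallowest library and TKO 37 the deepest. The part of depth in these differences was not tested beyond the thinned fit given below. Without Ctrl 41 or Ctrl 43 no member passed between series of Ctrl clones, and without TKO 35 or TKO 37 there were 5, while calls over all records fell from 1068 to 63, 73, 257 and 258 in these fits. Between series of TKO clones 15 members passed without TKO 35 and 17 without TKO 37, where calls over all records fell from 3877 to 708 and 914. With every library thinned to the smallest total, 25 members were lower in the thirties TKO clones, where 9.24% of 14002 records were called (748 as lower). In the same fit 26 members were higher in forties than in thirties TKO clones, where 18.8% of records were called (1418 as higher).

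Other gene lists were set beside the members as a description. Over all records 7.05% were called lower and 4.83% higher in the thirties TKO clones. In the forties clones these shares were 1.17% and 0.813%. Of 18 tested other fibroblast and matrix genes (such as Tnc, Mgp and Aebp1), 11 were lower in the thirties TKO clones and none passed in the forties clones, with medians of -1.20 and 0.08. Tnc (tenascin-C) had a thirties change of -1.81 (adjusted p = 0.002), Aebp1 of -1.20 and Mgp of -0.90. Not all genes of this list fell, since Eln (0.93) and Fbln1 (0.83) were fitted higher and Ogn stood at -0.01, none past the threshold. Of 10 contractile genes, which mark smooth muscle and activated fibroblasts, 8 were lower in the thirties TKO clones (median -1.85), among them Acta2 (-2.22), Myl9 (-2.23), Cnn1 (-2.07) and Tagln (-1.90), and the forties median was -0.32. The Hox genes that record a fibroblast's position along the body had medians of -0.89 and 0.20, with 5 of 19 lower in the thirties TKO clones. Their summed level per kilobase was 234 to 344 in thirties Ctrl, 132 to 142 in thirties TKO, 227 to 291 in forties Ctrl, and 280 to 323 in forties TKO clones. The other fibroblast genes, of which 18 of the 20 with a record passed the filter, summed to 38341 to 51535, 23070 to 24097, 33179 to 40048 and 35583 to 40853 in the same order. The medians of all 3 lists were lowest in TKO 35 and TKO 37, as were those of the members. This was not particular to fibroblast lists. Neural progenitor markers (-0.54 and -0.60), primitive and parietal endoderm markers (-0.34 and -0.39) and endothelial markers (-0.13 and -0.06) were also lowest in TKO 35 and TKO 37. The part of remaining or feeder fibroblasts in these values was not tested.

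Lists for matrix machinery and for other cell types gave varied values. Their counts stand beside 7.05% of all records called lower and 4.83% higher in the thirties, and 1.17% lower in the forties clones. Counts of 1 or 2 genes in such short lists are not read as a result about a list. The neural progenitor medians (-1.14 and 0.22) were near those of the members (-1.21 and 0.29). Collagen folding and processing genes had medians of -0.52 in the thirties and 0.16 in the forties clones (5 lower and 1 higher of 15 in the thirties), basement membrane genes had -0.01 and -0.02 (2 lower of 12), matrix receptors -0.48 and -0.09 (5 lower and 2 higher of 16) and genes of TGF-beta signalling to matrix -0.43 and -0.11 (4 lower of 13, and 1 lower in the forties). Pluripotent cell markers had medians of -0.04 and 0.24 (1 lower and 2 higher of 11 in the thirties), and their summed level was 133893 to 184575 in thirties Ctrl, 178143 to 184686 in thirties TKO, 122604 to 136973 in forties Ctrl and 163471 to 182138 in forties TKO clones. Most of this sum was Dppa5a (109615 per kilobase on average), and without it, a gene left out after its value was seen, the sums were 52321 to 60433, 46127 to 47176, 49080 to 50636 and 49050 to 54742 in the same order. Pou5f1 was the 1 lower marker in the thirties TKO clones (-0.79, adjusted p = 0.00267) and also passed over all clones (-0.61, adjusted p = 0.038). Epithelial markers had medians of 0.43 and -0.60 and were lowest in Ctrl 34 and highest in Ctrl 41. Of the remaining lists, primitive and parietal endoderm markers had medians of -0.20 and -0.54 (2 lower of 11 in the thirties), endothelial markers -0.10 and 0.32 (2 lower of 11), blood cell markers 0.10 and 0.57 (none of 7), early mesoderm markers 0.18 and -0.49 (1 lower and 1 higher of 9) and neural progenitor markers -1.14 and 0.22 (3 lower of 7, and 1 lower in the forties).

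**Figure D4:**
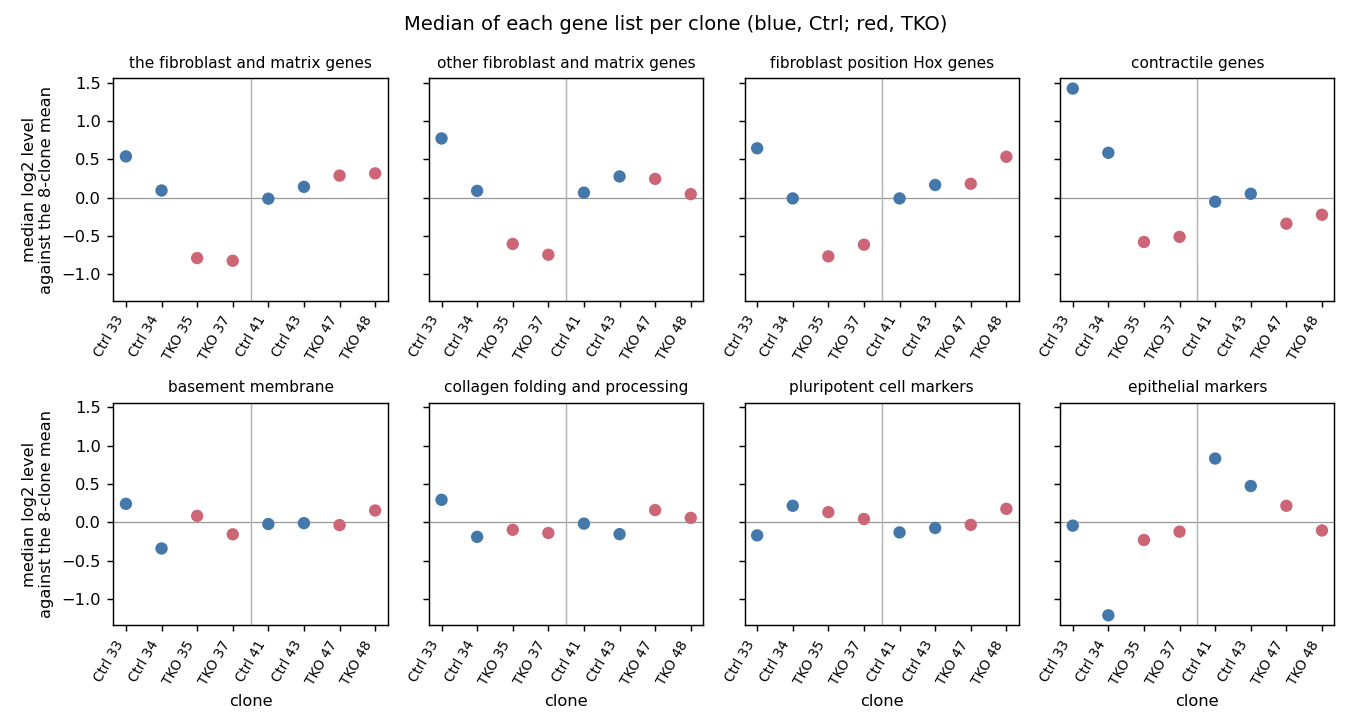
Median level of 8 gene lists in each iPSC clone, as the median over genes of the log2 level minus the gene's 8-clone mean, with Ctrl in blue, TKO in red and a grey line between thirties and forties clones. The 36 members sit at -0.79 and -0.82 in TKO 35 and TKO 37 and between -0.01 and 0.54 in the other clones, other fibroblast genes and position Hox genes have these TKO clones lowest as well, and basement membrane and collagen folding genes stay within -0.34 and 0.29.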

How the data were processed

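RNA of 8 mouse iPSC clones (4 Ctrl, 4 TKO) was sequenced by the authors from Illumina TruSeq libraries, and reads were mapped to mm9 transcript sequences with BWA, for which the submitters' notes give version 0.7.5a. The deposited table holds raw read counts per RefSeq record, unscaled and unfiltered, and how the authors counted reads that match several records or either strand is not given in the sources used here. Symbols came from a RefSeq table (GRCm38.p6, names only) for 26322 of 27052 records, 1 of them named from the paper, and coordinates from an mm9 annotation. Records reaching 5 reads in 4 of the 8 libraries were kept, which held 99.97% of the reads of each library. Size factors were median ratios (0.368 to 2.06).

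The main test was edgeR 4.0.16 (R 4.3.3), glmQLFit and glmQLFTest on all tested records with Benjamini-Hochberg adjustment and a threshold of 0.05, and standard errors came from the log2 fold change and F value. The 3 models held genotype alone, genotype plus clone series, and the 4 combinations of both, and gave 7 comparisons in all. The common biological coefficient of variation was 0.261, 0.171 and 0.136 in these 3 models. Single genes were compared by exact two-sided permutation over the 70 arrangements of 4 and 4 clones, which cannot go below 0.0286. All comparisons across series share the 4-group fit. Scripts were tested on simulated counts.

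Values per clone are given for members called in any of the 7 comparisons and for the highest and the most changed member of each of 10 roles, up to 24 members, taken by smallest adjusted p, and other members by range and counts. Of each of 14 other lists, up to 4 called genes could be named. The members and lists were chosen with earlier results of these data known. Alternatives tried were scaling by TMM, the low-count filter dropped or raised to 10 reads in every library, DESeq2 1.42.0, limma-voom (limma 3.58.1), edgeR's exact test, counts summed per symbol, thinned libraries, each series fitted alone, an added 2.5-fold threshold, the clone series as a term and leaving out each clone. For named members, the alternatives within series and for the difference between series were chosen after seeing the data.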

Additional observations from a re-analysis of the deposited data

Results flagged for a closer look

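The genotype effect differed between the series for 15 members (1.3% of all records were called). Of these members only Serpinf1 also passed within the forties clones. The forties effect minus the thirties effect, on the log2 scale, was 2.54 for Twist2, 2.17 for Serpinf1, 2.04 for Col5a2, 1.94 for S100a4, 1.83 for Postn, 1.81 for both Bgn and Cdh11, 1.77 for Col1a2, 1.70 for Fbn1, 1.58 for Thy1, 1.52 for Col5a1, 1.39 for Col6a1, 1.31 for Fstl1, 1.23 for Loxl2 and 0.97 for Vim, with adjusted p from 0.0145 to 0.0483 by edgeR's quasi-likelihood test. For 14 of them TKO clones were fitted lower in the thirties and higher in the forties clones. Of the 14, Fstl1 (0.04 ± 0.18) and Cdh11 (0.08 ± 0.17) were near 0 in the forties. For Fbn1 TKO clones were fitted lower in both series. These calls were lost when Ctrl 41, Ctrl 43, TKO 35 or TKO 37 was left out.

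A single clone stood apart from the other 3 of its genotype, by Dixon's criterion, in 3 of 72 groups of 4 values, and chance alone marks about 1 in 20 groups. The values were 6916 normalized counts of Col5a1 and 5.44 of Pdgfrb in Ctrl 33, and 423 of Lum in TKO 47. Pdgfrb rests on 8 reads or fewer per library.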

How the results depend on the processing

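No paired analysis was possible because Ctrl and TKO clones share no clone number. TMM scaling, a filter of at least 10 reads in every library and counts summed per symbol kept each count of members called within 1.5 times its value, and for the other counts the share of all records called in the same fit is given in parentheses. A required change of at least 2.5-fold (for all but the first comparison chosen after seeing the data) left 0 members for TKO against Ctrl (0.166%), 0 with the series in the model (0.893%), 10 in the thirties (3.44%), 0 in the forties (0.431%), 12 for the difference between series (0.899%), 2 between series of Ctrl clones (2.24%) and 16 between those of TKO clones (6.9%). DESeq2 moved the counts to 1 for TKO against Ctrl (3.17%), 6 with the series in the model (13.6%), 6 in the forties (6.94%), 29 for the difference between series (5.79%) and 17 between series of Ctrl clones (10.8%), and edgeR's exact test to 1 for TKO against Ctrl (1.34%). No filter gave 4 with the series in the model (5.31%), 7 in the forties clones (3.3%) and 28 for the difference between series (3.03%). In the forties clones limma-voom gave 3 (2.84%), thinned libraries 0 (1.47%) and the series fitted alone 2 (1.48%). The cause of these shifts was not tested. Leaving out 1 clone at a time gave 0 to 5 members with the series in the model, 1 to 32 in the thirties clones, 0 to 13 in the forties clones, 0 to 25 for the difference between series, 0 to 14 between series of Ctrl clones and 15 to 31 between those of TKO clones. The share of all records called ran in the same order over these ranges (0.574% to 10.2%, 0.17% to 21.3%, 0.0437% to 9.19%, 0.00623% to 8.11%, 0.393% to 15.1% and 4.46% to 34.3%), and a lone clone left in a group is then assumed to vary like the others. The thirties median ran from -1.40 (without Ctrl 34) to -0.91 (without Ctrl 33).

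Some fitted changes turned sign, none of them past the threshold. Not all were near 0 in the main fit, with 0.46 for Col6a2 and 0.39 for Col6a1 over all clones. In the forties clones Cdh2 was at -0.34 and Prrx1 at -0.30. Over all clones, limma-voom gave -0.27 for Postn and 0.077 for Sparc, and the series as a term gave -0.19 and 0.042. Leaving out 1 clone gave -0.44 to 0.27 for Postn, -0.16 to 0.19 for Sparc, -0.70 to 0.20 for S100a4, -0.12 to 0.65 for Col6a1, -0.12 to 0.73 for Col6a2, -0.49 to 0.040 for Serpinf1 and -0.23 to 0.078 for Vim. In the forties clones thinned libraries gave 0.031 for Snai2 and -0.079 for Fbln2, and leaving out 1 clone gave -0.051 to 0.22 for Cdh11, -0.12 to 0.18 for Fstl1, -0.88 to 0.056 for Cdh2, -0.71 to 0.084 for Prrx1, -0.37 to 0.12 for Snai2, -0.21 to 0.098 for Mmp14 and -0.19 to 0.41 for Fbln2. No thirties change and no difference between series turned sign for the 24 members named per clone. Depth limits Pdgfrb, Fap and Dcn most, since each held at most 106 reads in any library.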
